A study of Homo sapiens with 9 samples.

Results

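The epidermal growth factor (EGF) receptor family and its nearest partners were followed through 2 treatments of trabecular meshwork cells as a set of 10 genes out of the 37247 listed in the deposited tables. The set holds 5 ligands (HBEGF, AREG, EREG, TGFA and NRG1), 3 receptors (EGFR, ERBB2 and ERBB3) and 2 inhibitors of the receptors (ERRFI1 and LRIG1), found by gene symbol. The members were chosen by gene family with earlier results of both treatment comparisons already in view. The calls given here for the members, in those comparisons and in the difference between them, are therefore a description. The number of members called supports nothing about the family.

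The cells were an immortalized human line made from primary trabecular meshwork, the porous tissue that drains aqueous humour from the front of the eye. They were kept in serum-free medium for 24 h and harvested 6 h after addition of dexamethasone (DEX, a synthetic glucocorticoid) at 0.1 µM, norepinephrine (NE, the transmitter of sympathetic nerves) at 1 µM, or the vehicle DMSO. RNA sequencing gave 3 DEX and 3 vehicle libraries in one table (19326830 to 27337259 counts per library) and 3 NE and 3 vehicle libraries in another (31104094 to 36216506 counts). The labels describe 9 samples while the tables hold 12 libraries, and the vehicle columns of the NE table were placed in the vehicle group by name without being matched to a labelled sample.

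All cells came from 1 line, and the labels do not say that the replicates were separate cultures, so p-values measure only the spread between these libraries. The labelled tissue was checked against 12 marker genes of trabecular meshwork, of which 9 exceeded 1 CPM (counts scaled to a common library total) in at least 1 library. FOXC1 (58.8 to 80.8 CPM) and VIM (2337 to 4131 CPM) were present, whereas MYOC, AQP1 and ANGPTL7 stayed at or under 0.231, 0.332 and 0.405 CPM. The first vehicle library of the NE table stood apart from the other members of its group. The chi-square per degree of freedom of its counts was 17.3 and 21.1 against the others, compared with 2.97 between those. The first NE library also differed more from its own group, at 5.64 and 9.44, compared with 3.48 between the others.

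EGF family ligands are made as membrane-anchored precursors and released by metalloproteases. Binding joins the receptors in pairs, which switches on their kinase domains and, through adaptors, the RAS to ERK and PI3K cascades. ERBB2 has no known ligand of its own and ERBB3 has little kinase activity, so both signal mainly as partners, while ERRFI1 (also called MIG6) binds the kinase domain of an active receptor and blocks it. LRIG1 is a transmembrane protein that promotes receptor degradation.

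Of the 10 members, 8 passed the filter on low counts in the DEX comparison (all but EREG and TGFA), and all 10 passed in the NE comparison. A gene was called when its adjusted p was below 0.05 in edgeR's quasi-likelihood test with Benjamini-Hochberg adjustment over all genes tested. With DEX, 1 of 8 tested members was called higher (ERRFI1) and 3 lower (HBEGF, ERBB3 and LRIG1), where 10.1% of the 15133 genes tested were called, 6.65% higher and 3.46% lower. With NE, 1 of 10 was called, LRIG1, which was lower, where 2.82% of 15630 genes were called, 1.48% higher and 1.34% lower. The members' median log2 fold change was -0.27 with DEX and -0.07 with NE, and the median over all genes tested was -0.01 and -0.00. These are bulk measurements, in which fewer cells that express a gene and less RNA per cell cannot be told apart.

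**Figure D1:**
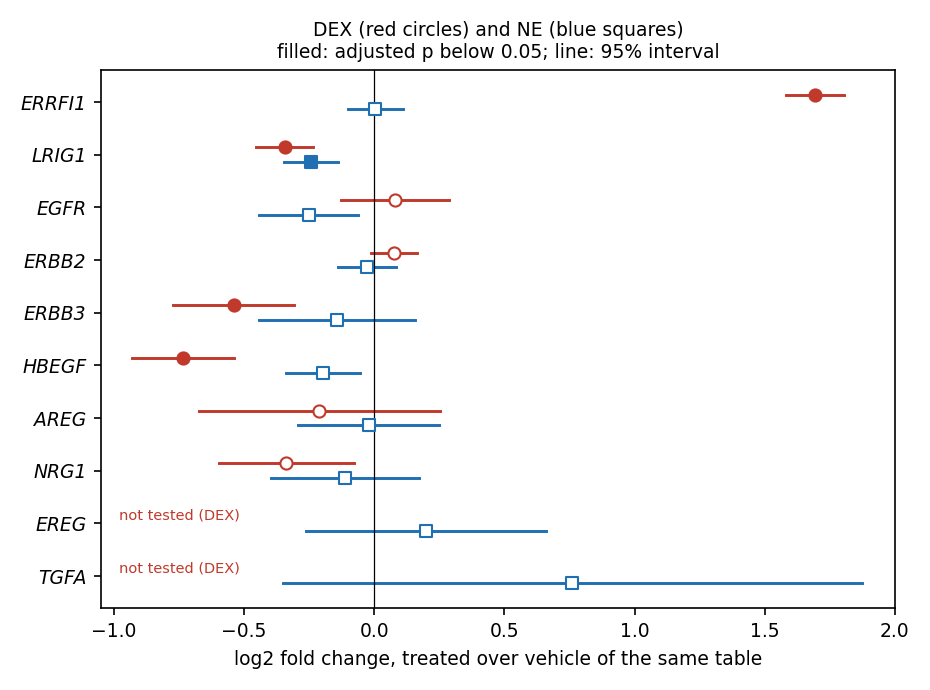
Log2 fold change (x axis) of each member (y axis) with DEX (circles) and NE (squares), each relative to the vehicle libraries in the same table. Lines are 95% intervals and filled symbols are genes called, so that ERRFI1 with DEX (1.69) stands far to the right of all other values, and HBEGF, ERBB3 and LRIG1 with DEX and LRIG1 with NE are the filled symbols left of 0.

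Promoter sequence is shown for 3 members to set the sequence beside their values: ERRFI1 and HBEGF, the pair called in opposite directions with DEX, and AREG, whose promoter carries a palindrome bound by cAMP-responsive factors. Each runs 5′ to 3′ on the gene's own strand from 250 bases before to 50 bases after the annotated start, from RefSeq on GRCh38.p14, and capitals mark the motif matches. ERRFI1 lies at chr1:8026260-8026559 on the minus strand, HBEGF at chr5:140346554-140346853 on the minus strand and AREG at chr4:74444886-74445185 on the plus strand.
ERRFI1: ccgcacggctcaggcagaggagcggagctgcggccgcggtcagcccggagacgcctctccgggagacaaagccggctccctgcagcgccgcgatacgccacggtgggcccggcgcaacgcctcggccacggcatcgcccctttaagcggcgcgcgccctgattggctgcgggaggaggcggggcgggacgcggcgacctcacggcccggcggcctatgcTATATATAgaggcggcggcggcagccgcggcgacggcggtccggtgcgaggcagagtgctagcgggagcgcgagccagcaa
HBEGF: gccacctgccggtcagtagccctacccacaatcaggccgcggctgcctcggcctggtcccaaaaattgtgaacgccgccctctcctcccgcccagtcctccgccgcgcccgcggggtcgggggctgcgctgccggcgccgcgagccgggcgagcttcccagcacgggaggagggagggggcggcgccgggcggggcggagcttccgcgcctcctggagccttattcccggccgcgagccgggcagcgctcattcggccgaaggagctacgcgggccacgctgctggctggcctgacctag
AREG: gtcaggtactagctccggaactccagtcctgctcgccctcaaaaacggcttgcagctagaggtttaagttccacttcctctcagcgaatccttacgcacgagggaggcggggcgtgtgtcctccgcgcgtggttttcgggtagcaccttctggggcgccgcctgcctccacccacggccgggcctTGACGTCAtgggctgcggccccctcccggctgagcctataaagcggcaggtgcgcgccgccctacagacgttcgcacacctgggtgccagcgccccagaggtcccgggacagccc

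The motifs searched on both strands were the glucocorticoid response half-site AGAACA, the full palindrome of that half-site with a 3-base spacer, the cAMP response element TGACGTCA and its half-site TGACG, the AP-1 site TGANTCA, and the TATA-like run TATATA. In the ERRFI1 window the TATATA run was found as 2 overlapping matches, the first 31 bases before the start at position -31. The run occurs in 3.998% of the 34943 promoters of the same length. The AREG window held TGACGTCA at position -65, which overlaps its own 2 half-sites and occurs in 1.84% of promoters. The HBEGF window held none of the motifs. The half-site AGAACA occurs in 14.8% of promoters, TGACG in 24.5%, TGANTCA in 7.72%, and the full palindrome in 1 promoter of all. Neither the ERRFI1 nor the HBEGF window held a glucocorticoid motif. AGAACA was found in windows of 3 members not called with DEX or not tested there: ERBB2 at position -1, EGFR at position 19 of a second annotated start, and TGFA at position -46 of a further start. No member window held the full palindrome. ERBB3, called lower with DEX, and NRG1 had no promoter entry, so no window of theirs was searched for any motif. TGACG was also found in EREG and TGFA, and TGANTCA in windows of LRIG1, EGFR and ERBB2. These matches are descriptions of the letters in a short window, and absence there says nothing about binding elsewhere.

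Among the ligands, HBEGF, the heparin-binding ligand of EGFR and ERBB4, fell with DEX. HBEGF (ENSG00000113070.7, minus strand of chr5:140332843-140346631 on GRCh38, GENCODE release 29, 6 merged exons) stood at 13.6, 11.3 and 12.7 CPM in the vehicle libraries and 8.01, 7.59 and 7.02 CPM with DEX. All 3 DEX libraries lay under all 3 vehicle libraries, and the group means were 12.5 ± 1.2 and 7.54 ± 0.50 CPM (SD, n = 3). The log2 fold change was -0.74 (SE 0.09, adjusted p = 7.77e-05, edgeR quasi-likelihood test with Benjamini-Hochberg adjustment), or 0.601-fold. By size it was the 45th of the 524 genes called lower. In the NE table HBEGF stood at 9.78, 9.67 and 9.67 CPM with vehicle and 8.35, 8.36 and 8.67 CPM with NE. These groups did not overlap either, but the log2 fold change of -0.20 (SE 0.06) did not pass the test (adjusted p = 0.185).

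AREG, the amphiregulin gene, encodes a lower-affinity ligand of EGFR (ENSG00000109321.10, plus strand of chr4:74445134-74455009, 6 merged exons). It stood at 2.49, 2.02 and 1.47 CPM with vehicle and 1.83, 1.77 and 1.54 CPM with DEX, so the groups overlapped (log2 fold change -0.21, SE 0.22, adjusted p = 0.618). In the NE table AREG stood at 4.87, 4.6 and 3.93 CPM with vehicle and 4.87, 4.25 and 4.09 CPM with NE, again overlapping (-0.02, SE 0.12, adjusted p = 0.957). AREG was thus called with neither agent, and any part of the cAMP palindrome in its promoter window was not tested.

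NRG1, neuregulin 1, is a ligand of ERBB3 and ERBB4. Its 3 DEX libraries (6.60, 6.34 and 5.09 CPM) lay under its 3 vehicle libraries (8.66, 7.03 and 7.05 CPM), but the log2 fold change of -0.34 (SE 0.12) did not pass the test (adjusted p = 0.102). Without a filter on low counts the same gene was called (adjusted p = 0.0376). With NE, NRG1 stood at 4.16, 5.50 and 4.95 CPM against 5.16, 5.79 and 4.86 CPM with vehicle, and the groups overlapped (-0.11, SE 0.12, adjusted p = 0.757).

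EREG (epiregulin) and TGFA (transforming growth factor alpha), both ligands of EGFR, were close to the limit of detection. EREG lies at chr4:74365143-74388751 on the plus strand, on the same chromosome as AREG, and TGFA at chr2:70447280-70554193 on the minus strand. EREG had 5 to 9 counts per library with vehicle and 8 to 11 with DEX, and 25 in each vehicle library and 25 to 33 with NE. TGFA had 2, 1 and 0 counts with vehicle and 2, 4 and 2 with DEX, and 2, 6 and 12 counts with vehicle and 12, 10 and 11 with NE. In the NE comparison, where both could be tested, neither was called (EREG log2 fold change 0.20, SE 0.20, adjusted p = 0.749, and TGFA 0.76, SE 0.48, adjusted p = 0.559). Differences in TGFA were not detectable at this depth.

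Among the receptors, EGFR, which binds EGF, TGFA, AREG, HBEGF and EREG, was not called with either agent in the main fits, but its NE result depended on the fit. EGFR (ENSG00000146648.17, plus strand of chr7:55019021-55211628, 34 merged exons) stood at 80.9, 88.0 and 99.6 CPM with vehicle and 103, 94.5 and 86.3 CPM with DEX. The groups overlapped, and the log2 fold change was 0.08 (SE 0.09, 95% interval -0.13 to 0.29, adjusted p = 0.663). In the NE table it stood at 193, 229 and 241 CPM with vehicle and 176, 186 and 195 CPM with NE. The highest NE library exceeded the lowest vehicle library, the one that stood apart, and the log2 fold change of -0.25 (SE 0.08) did not pass the test (adjusted p = 0.201). Without that vehicle library the value was -0.34 and was called (adjusted p = 0.00242). Each NE library also lay under the vehicle library of the same number. With the replicate number as a block in the same edgeR test, EGFR was called lower (-0.25, adjusted p = 0.000303). The labels do not say that same-numbered libraries are pairs.

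ERBB2, the preferred partner of the other receptors, was not called with either agent. ERBB2 (ENSG00000141736.13, plus strand of chr17:39687914-39730426, 31 merged exons) stood at 107, 107 and 106 CPM with vehicle and 112, 110 and 117 CPM with DEX. Every DEX library lay above every vehicle library, yet the log2 fold change of 0.08 (SE 0.04) did not pass the test (adjusted p = 0.307). With NE it stood at 109, 110 and 116 CPM against 109, 119 and 114 CPM with vehicle, overlapping (-0.03, SE 0.05, adjusted p = 0.843). ERBB2 shares 571 bases of exon with MIEN1 on the opposite strand and 194 with PGAP3. Since the strand setting of the counting is not given, reads in those stretches cannot be told apart. MIEN1 itself was called lower with DEX (log2 fold change -0.22, SE 0.05, adjusted p = 0.0183).

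ERBB3, the neuregulin receptor with little kinase activity, fell with DEX. ERBB3 (ENSG00000065361.15, plus strand of chr12:56076799-56103505, 28 merged exons) stood at 7.21, 8.53 and 9.17 CPM with vehicle and 5.56, 5.45 and 6.13 CPM with DEX. The groups did not overlap, and the log2 fold change was -0.54 (SE 0.11, adjusted p = 0.00449, edgeR quasi-likelihood test with Benjamini-Hochberg adjustment), the 100th largest of the 524 falls. In the NE table the libraries overlapped, at 5.06, 6.15 and 6.70 CPM with vehicle and 4.77, 5.41 and 6.05 CPM with NE (-0.14, SE 0.13, adjusted p = 0.703).

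ERBB3 is typical of epithelium, so epithelial markers are given beside it. The summed level of 8 epithelial genes was 417.9 to 433.3 CPM with vehicle and 315.5 to 331 CPM with DEX, and 214 to 265 CPM with vehicle and 167.7 to 193.2 CPM with NE. Most of that sum was KRT18 (133 to 364 CPM over all libraries) and KRT8 (33.5 to 67.0 CPM). Of the 8 genes, only 4 were tested with DEX and 3 with NE. KRT18, a keratin also made outside epithelium, was the only one called, and it was lower with both agents. The defining genes EPCAM (0.65 to 1.55 CPM) and CDH1 (0.13 to 0.58 CPM) were low throughout, and KRT12 and KRT3 had at most 1 count in a library. The part of these levels in the ERBB3 result was not tested.

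Among the inhibitors, ERRFI1 rose 3.23-fold with DEX and was not called with NE. ERRFI1 (ENSG00000116285.12, minus strand of chr1:8004404-8026308, 4 merged exons) stood at 42.1, 39.8 and 39.0 CPM with vehicle and 137, 129 and 124 CPM with DEX. The lowest DEX library was far above the highest vehicle library, and the means were 40.3 ± 1.6 and 130 ± 6.6 CPM (SD, n = 3). The log2 fold change was 1.69 (SE 0.05, 95% interval 1.58 to 1.81), with an adjusted p of 6.15e-11 (edgeR quasi-likelihood test with Benjamini-Hochberg adjustment). It ranked 4th of all genes by p and was the 38th largest of the 1006 rises. With NE the libraries were interleaved, at 42.3, 44.3 and 43.7 CPM with vehicle and 43.0, 45.2 and 42.6 CPM with NE. The log2 fold change was 0.00 (SE 0.05, 95% interval -0.10 to 0.11, adjusted p = 0.978). An antisense gene overlaps 155 bases of ERRFI1 exon, and EGFR-AS1 overlaps 186 bases of EGFR exon, so reads of either strand cannot be told apart there.

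LRIG1 was the only member called with both agents, and it was lower in each. LRIG1 (ENSG00000144749.13, minus strand of chr3:66378797-66501263, 26 merged exons) stood at 82.2, 86.0 and 90.5 CPM with vehicle and 70.7, 68.6 and 64.7 CPM with DEX, and the groups did not overlap. The log2 fold change was -0.34 (SE 0.05, adjusted p = 0.000373), 233rd by size of the 524 falls. In the NE table it stood at 93.0, 92.4 and 99.0 CPM with vehicle and 82.3, 79.2 and 78.7 CPM with NE, also without overlap (-0.24, SE 0.05, adjusted p = 0.0307). The NE call was lost in 5 of the 6 fits that left out 1 library. Its adjusted p was then 0.0949 without vehicle 2, 0.118 without vehicle 3, and 0.0687, 0.193 and 0.171 without NE 1, 2 and 3. LRIG1 shares 907 bases of exon with SLC25A26 on the opposite strand, which was not called with DEX (log2 fold change -0.08, SE 0.07) or NE (-0.14, SE 0.09).

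**Figure D2:**
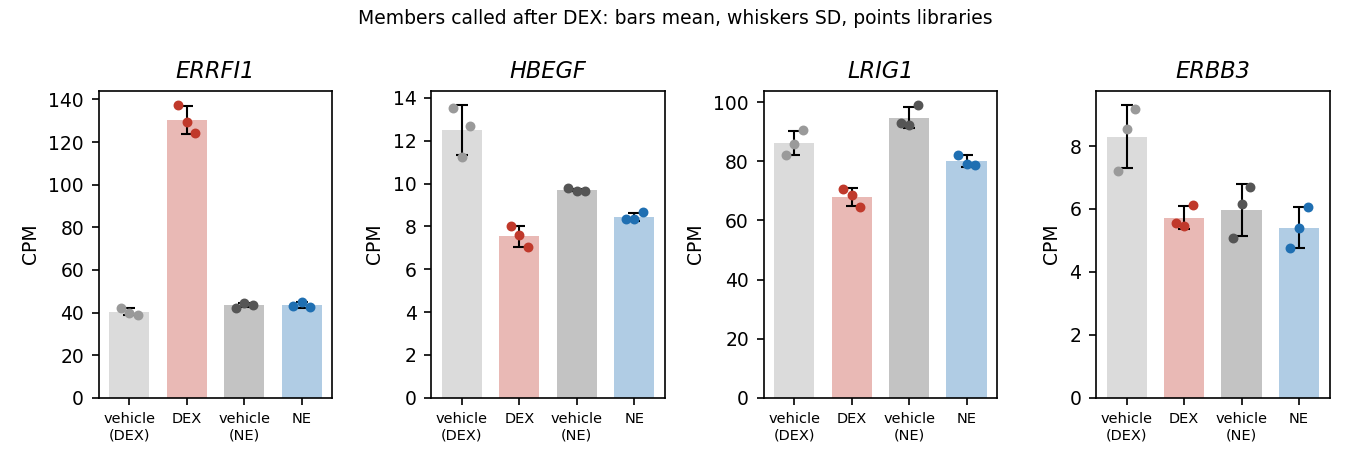
CPM (y axis) of the 4 members called with DEX in the 4 groups of 3 libraries, with bars for the mean, whiskers for the SD and points for single libraries. ERRFI1 stands at 130 CPM with DEX and between 40.3 and 43.6 CPM in the other groups, while HBEGF, LRIG1 and ERBB3 are lower with DEX than with the vehicle of the same table.

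The groups did not overlap for 6 of the 8 members tested with DEX, with ERRFI1 and ERBB2 all higher and LRIG1, ERBB3, HBEGF and NRG1 all lower. Over all genes tested with DEX, 15.2% were all higher and 13.1% all lower. With NE, LRIG1 and HBEGF were all lower and the other 8 members overlapped, where 11.1% of all genes tested were all higher and 9.99% all lower.

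Whether the response to the 2 agents differed was tested across all 12 libraries together as the DEX effect minus the NE effect. Of 9 members tested, 1 was called higher and 1 lower, where 6% of the 15952 genes tested were called, 3.88% higher and 2.12% lower. For ERRFI1 the difference was 1.69 on the log2 scale (SE 0.07, 95% interval 1.53 to 1.84, adjusted p = 7.45e-09). For HBEGF it was -0.54 (SE 0.11, 95% interval -0.78 to -0.30, adjusted p = 0.00786), so the fall with DEX was larger than the difference seen with NE. ERBB3, called with DEX and not with NE, was not called in this test (-0.40, SE 0.18, adjusted p = 0.261), so its effects were not shown to differ. LRIG1 was not called either (-0.10, adjusted p = 0.536), nor was EGFR (0.33, SE 0.14, adjusted p = 0.23). TGFA did not pass the filter in this fit.

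**Figure D3:**
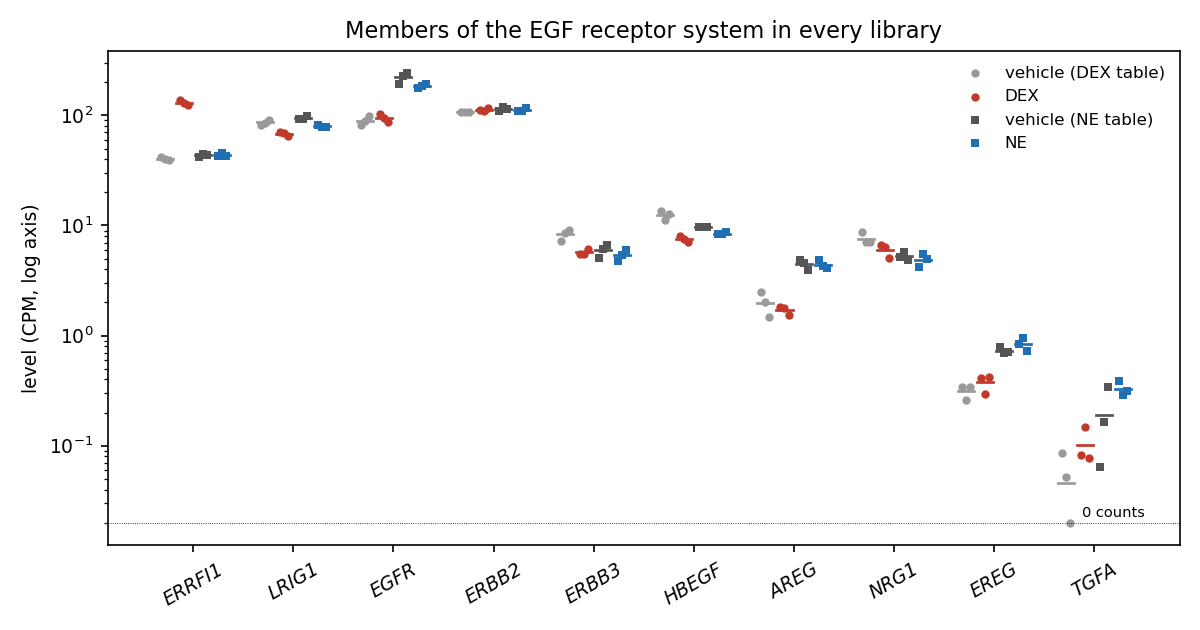
CPM on a log axis (y axis) of all 10 members in each of the 12 libraries, by group, with a line at the group mean and the 1 TGFA library without counts set on a dotted line. ERRFI1 is the member whose DEX libraries (124 to 137 CPM) leave its other libraries, EGFR and AREG lie higher in both groups of the NE table, and EREG and TGFA stay under 1 CPM in every library.

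Levels of different members were compared as CPM per kb of merged exon length. That length joins the exons of all annotated transcripts (22 for ERBB2, 11 for EGFR and 9 for LRIG1). Which transcripts the cells made was not examined, so the order, ratios and shares between members hold only for this length. In the vehicle libraries of the DEX table the order was LRIG1 (12.3 ± 0.59 CPM per kb), ERBB2 (10.4 ± 0.042), ERRFI1 (9.63 ± 0.39), EGFR (7.15 ± 0.75) and HBEGF (4.15 ± 0.38). Each was above the next in every library, and HBEGF was the most abundant ligand. AREG (1.21 ± 0.31 CPM per kb) and ERBB3 (0.918 ± 0.11) overlapped. NRG1, EREG and TGFA followed at 0.669, 0.0549 and 0.00923 CPM per kb.

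With DEX, ERRFI1 moved from the third place to the first, at 31.1 ± 1.6 CPM per kb. ERBB2 (10.9 ± 0.35), LRIG1 (9.67 ± 0.43), EGFR (7.57 ± 0.68) and HBEGF (2.50 ± 0.17) came next, each above its neighbour in every library. The ratio of ERRFI1 to EGFR, per kb, went from 1.36 ± 0.19 to 4.12 ± 0.17 (SD, n = 3). The summed level of the 5 ligands was 6.09 ± 0.66 CPM per kb with vehicle and 4.15 ± 0.32 with DEX, of which HBEGF made up 68.2% and 60.2%. These are sums and ratios of the values already given and carry no test of their own.

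In the NE table EGFR was the most abundant member, at 17.7 ± 2.0 CPM per kb with vehicle and 14.8 ± 0.75 with NE. With vehicle it was followed by LRIG1 (13.5 ± 0.52), ERBB2 (11.04 ± 0.48) and ERRFI1 (10.4 ± 0.25), of which the last pair overlapped. With NE, LRIG1 (11.4 ± 0.28), ERBB2 (10.8 ± 0.34) and ERRFI1 (10.4 ± 0.33) each overlapped its neighbour, as did HBEGF (2.80 ± 0.061) and AREG (2.67 ± 0.25). The ratio of ERRFI1 to EGFR was 0.592 ± 0.058 with vehicle and 0.704 ± 0.042 with NE.

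**Figure D4:**
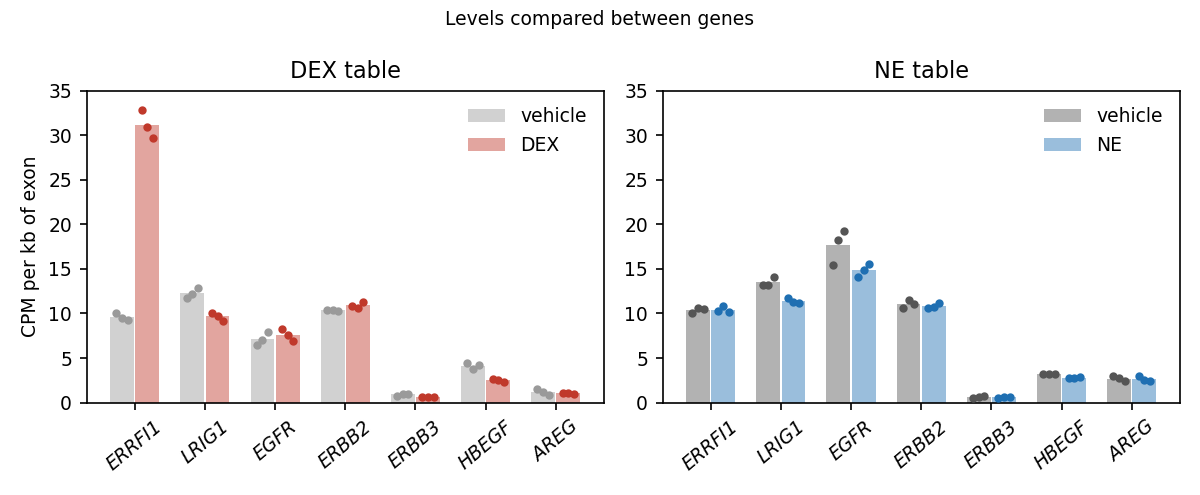
CPM per kb of exon (y axis) of the 7 most abundant members in the groups of the DEX table and the NE table, with bars for the mean and points for single libraries. ERRFI1 is first with DEX at 31.1 CPM per kb, and EGFR is first in both groups of the NE table at 17.7 and 14.8 CPM per kb.

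The vehicle libraries of the 2 tables differed in the makeup of the family. EGFR was 2.47 times as high in the vehicle libraries of the NE table as in those of the DEX table, AREG 2.24 times and EREG 2.33 times. HBEGF, ERBB3 and NRG1 were lower there, at 0.776, 0.719 and 0.695 times, while ERRFI1 (1.08), LRIG1 (1.10) and ERBB2 (1.07) were near even. EGFR made up 38.7% ± 2.3 of the summed level of the 3 receptors per kb in the DEX-table vehicle and 60.0% ± 2.0 in the NE-table vehicle (SD, n = 3). The 2 sets did not overlap for 9 of the 10 members, as for 58.2% of 14943 genes, and 3.40% of genes differed at least as much as EGFR. Marker levels differed between the tables as well. The summed level of 8 epithelial genes, mostly KRT18 and KRT8, was 417.9 to 433.3 and 214 to 265 CPM in the respective vehicle libraries. For 6 endothelial genes it was 6.98 to 8.15 and 10.99 to 12.8 CPM. For 5 immune genes, mostly CD68, it was 26.8 to 28.2 and 65.8 to 71.4 CPM. The tables were normalised separately and these ratios were not tested, and the table cannot be told apart from any difference between the cultures.

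Other genes of the pathway were read from 5 lists drawn up with earlier results in view. Their counts stand beside the same background as the members': with DEX 6.65% of all genes tested were called higher and 3.46% lower, and with NE 1.48% higher and 1.34% lower. Of 7 further ligands and receptors of the family, 4 were tested with DEX, 2 were called lower and none higher, with a median log2 fold change of -0.41. EGF, the founding ligand, stood at 3.54 ± 0.19 CPM with vehicle and 2.54 ± 0.099 with DEX (log2 fold change -0.48, SE 0.14, adjusted p = 0.0444). NRG2, a second neuregulin, named because the count is small, went from 1.82 ± 0.35 to 0.908 ± 0.33 CPM (-0.99, SE 0.27, adjusted p = 0.0319). DESeq2 called neither, and leaving out any 1 of the 6 libraries left 0 or 1 of the 2 calls. With NE, edgeR and DESeq2 called 0 of these genes, and 1 had an unadjusted p under 0.05. ERBB4 (1 to 7 counts), NRG3 (0 to 1) and NRG4 (1 to 8) were too low to test.

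Of 10 genes listed for release of ligands from the membrane and surface trafficking, 2 were called higher and none lower with DEX (median log2 fold change 0.09), where 6.65% of all genes tested were called higher. They were FRMD8 (1.15-fold, adjusted p = 0.0153), which stabilises the rhomboid-like carriers of ADAM17, and the protease ADAM9 (1.12-fold, adjusted p = 0.0332). The FRMD8 call was lost with DESeq2, with the replicate block and without vehicle 2 or DEX 2. The ADAM9 call was lost with the replicate block and when any library other than vehicle 3 was left out. With NE, 2 were called lower and 1 higher (median -0.06), where 1.34% of all genes tested were lower and 1.48% higher. The protease ADAMTS1 fell from 40.1 ± 0.20 to 27.5 ± 1.1 CPM (adjusted p = 0.00079, log2 fold change -0.55 with SE 0.05) and RHBDF1, a carrier of ADAM17, fell by less (-0.28, SE 0.05, adjusted p = 0.0291), a call kept in only 1 of the 6 fits that left out 1 library, that without vehicle 1. ADAM12, a protease able to release HBEGF, rose from 27.1 ± 1.8 to 38.3 ± 2.2 CPM (1.42-fold, adjusted p = 0.00684), a call lost without NE 2 or NE 3.

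Of 25 adaptors and kinases of the RAS to ERK and PI3K cascades, 24 were tested. With DEX, 6 were called higher and none lower, where 6.65% of all genes tested were higher and 3.46% lower, and the median log2 fold change was 0.04. PIK3R1, the regulatory subunit of PI3K, rose from 23.5 ± 1.7 to 42.6 ± 0.99 CPM (1.81-fold, adjusted p = 2.4e-07). SOS2, an exchange factor for RAS, rose 1.24-fold (adjusted p = 0.00189), and GAB1, a docking protein, 1.23-fold (adjusted p = 0.0127). The GAB1 call was lost without vehicle 1, vehicle 2 or DEX 2. With NE, edgeR and DESeq2 called 0 of them, and 1 had an unadjusted p under 0.05.

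Of 23 genes listed for inhibition, trafficking or degradation of the receptors, besides the 2 members, 21 were tested. Not every gene on this list is itself an inhibitor, as with USP8 and RAB7A. With DEX, 6 were called higher and none lower, beside 6.65% and 3.46% of all genes tested. The median log2 fold change was 0.04, and the fits without vehicle 1, DEX 1 or DEX 2 each called 3. The ubiquitin ligases NEDD4 (99.9 ± 6.6 to 184 ± 9.7 CPM, 1.84-fold, adjusted p = 8.43e-08) and CBLB (17.0 ± 0.51 to 30.8 ± 1.6 CPM, 1.81-fold, adjusted p = 4.08e-07) rose, CBLB being one that tags active EGFR for degradation. The phosphatase PTPN1 rose 1.31-fold (adjusted p = 1.89e-05), and decorin (DCN), a matrix proteoglycan that binds EGFR, 1.41-fold (adjusted p = 0.02). The DCN call was lost with DESeq2 and without vehicle 1, DEX 1 or DEX 2. With NE, 2 were called higher and none lower (median 0.00), beside 1.48% and 1.34% of all genes tested. CBLB went from 21.7 ± 1.3 to 29.99 ± 2.4 CPM (1.38-fold, adjusted p = 0.0155) and LRIG3, a relative of LRIG1, from 18.2 ± 0.31 to 23.4 ± 1.4 CPM (1.29-fold, adjusted p = 0.0163). The count with NE was 0 to 2 when 1 library was left out: both calls were lost without vehicle 2, NE 2 or NE 3, and that of LRIG3 also without vehicle 3.

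Of 20 genes that ERK induces, its own brakes among them, 19 were tested. With NE, 15 were called lower and none higher, with a median log2 fold change of -0.53, where 1.34% of all genes tested were called lower. Their fall with NE was already known when the list was drawn up, so the count is not independent evidence of it, and without NE 2 or NE 3 the count was 8 or 9. The phosphatase gene DUSP6 fell from 51.0 ± 4.2 to 21.7 ± 2.9 CPM (adjusted p = 0.000576, log2 fold change -1.23 with SE 0.10), and SPRY4, FOSL1 and EGR1 fell by 1.19, 1.06 and 1.05 on the log2 scale. With DEX, 3 were called higher and 7 lower (median -0.02), beside 6.65% and 3.46% of all genes tested. The phosphatase gene DUSP5 (39.3 ± 2.6 to 76.8 ± 4.1 CPM, 1.95-fold, adjusted p = 5.69e-08) and MYC (1.80-fold, adjusted p = 1.16e-08) rose, whereas FOSL1 (log2 fold change -0.65, adjusted p = 2.72e-06) and SPRED3 (-0.60, adjusted p = 0.0094) fell, the last of these not without DEX 2.

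**Figure D5:**
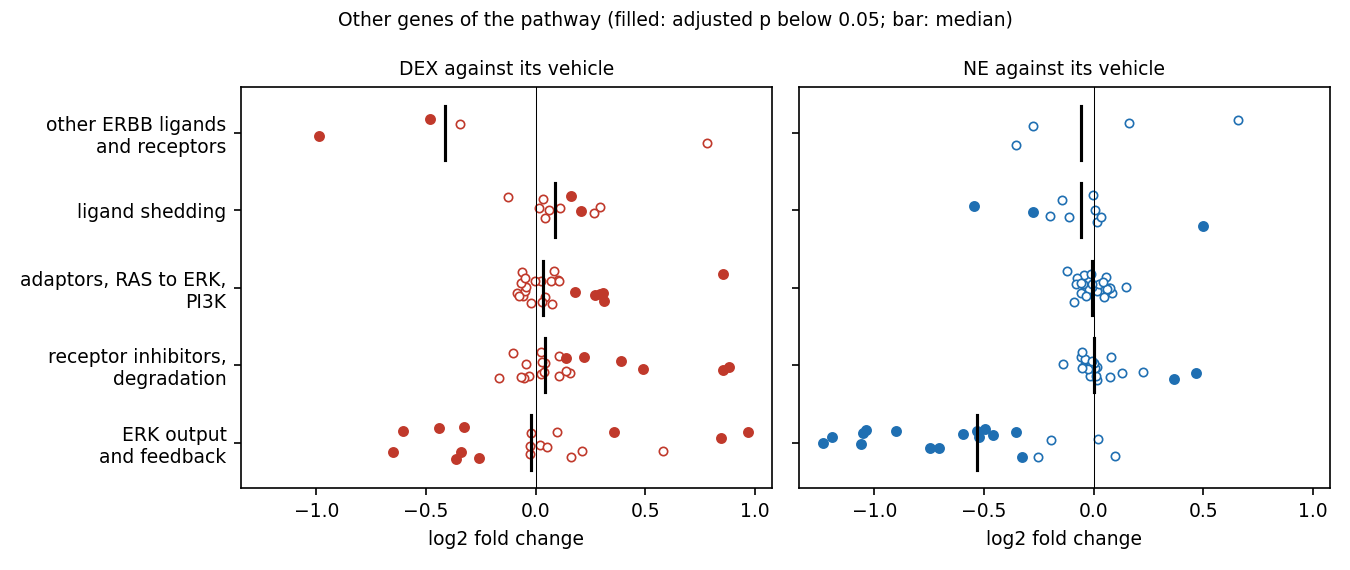
Log2 fold change (x axis) of the tested genes of the 5 pathway lists (y axis) with DEX and with NE, with 1 point per gene, filled where called, and a bar at the median. The ERK output genes are the list with the lowest NE median (-0.53), while the medians of the adaptor and inhibitor lists lie within 0.05 of 0 with both agents.

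The genes whose pattern was most like that of ERRFI1 were sought among 9915 genes with an average of at least 3 log2 CPM. Likeness was Pearson's r over the 12 libraries of log2(CPM + 1) after subtraction of the mean of each table's own vehicle libraries, so that 6 of the 12 values are vehicle and the measure mostly reads the response to DEX. The most alike were ZFAND5 (r = 0.996), FKBP5 (0.995), AOX1 (0.994), TNFRSF21 (0.994) and ITGA5 (0.993). FKBP5, a cochaperone of the glucocorticoid receptor, went from 123.6 to 369.8 CPM with DEX and stood at 209.2 and 222.2 CPM in the vehicle and NE libraries of the other table. The least alike were MRGPRF (-0.988) and ZCCHC24 (-0.982). Among the members, r with ERRFI1 was -0.929 for HBEGF and -0.716 for LRIG1, both called lower with DEX. It was 0.686 for ERBB2 and 0.437 for EGFR, neither of which was called with DEX.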

How the data were processed

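The authors deposited 2 tables of expected counts (estimates that can be fractions) for 37247 genes. In each library 49.3% to 55.6% of values above 0 were not whole. Aligner, counter, genome build, strand setting and library kit were not given in the sources used here. Rounding the expected counts to whole numbers moved library totals by at most 0.000918%. Symbols matched 34436 identifiers. Positions and exon lengths came from GENCODE release 29 (GRCh38), which holds 34620 of the identifiers, and promoters from RefSeq (GRCh38.p14), which has them for 8 of the 10 members.

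Each treatment was compared with the vehicle libraries of its own table. Genes were filtered with filterByExpr, normalised by TMM and compared by the quasi-likelihood test of edgeR (version 4.0.16, with limma 3.58.1 and R 4.3.3, robust dispersion, two-sided, Benjamini-Hochberg adjustment over all genes tested, threshold 0.05). The difference between the effects was tested over all 12 libraries. The code was tested on simulated data. Alternatives were DESeq2 1.42.0, its size factors in edgeR, no filter or a filter of 1 CPM in 3 libraries, a replicate block, a fit of all libraries, and each library left out.

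The members and lists were chosen with earlier results of these data known. All members are named, and from each pathway list at most the 4 called genes with the largest fold change and an average log2 CPM of at least 1. Values are mean ± SD of CPM on TMM-adjusted library sizes, over 3 libraries, and at these depths genes of a few counts allow no firm statement.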

Additional observations from a re-analysis of the deposited data

Results flagged for a closer look

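For 2 members the response to DEX and the response to NE differed in a test of the difference itself. Results of both comparisons were in view when the members were chosen, so these calls are a description as well. For ERRFI1 the DEX effect minus the NE effect was 1.69 on the log2 scale (SE 0.07, adjusted p = 7.45e-09, edgeR quasi-likelihood test with Benjamini-Hochberg adjustment), with all 3 DEX libraries above and the NE libraries interleaved with their vehicle libraries. It ranged from 1.65 to 1.72 over the alternatives (highest adjusted p 2.22e-07). For HBEGF the difference was -0.54 (SE 0.11, adjusted p = 0.00786), with every DEX and every NE library lower than its vehicle libraries. It ranged from -0.60 to -0.48 (highest adjusted p 0.0255). The 2 treatments were measured in separate tables with different vehicle libraries, so table and agent cannot be told apart beyond the subtraction of each vehicle set.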

How the results depend on the processing

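Of 364 values of single members under the alternatives, 343 kept their direction and side of the threshold, 5 lost the call, 3 gained one and 13 changed sign. The 13 were uncalled before and after and arose when 1 library was left out, where log2 values ranged from -0.0228 to 0.0187 (ERRFI1, NE), -0.0585 to 0.00404 (ERBB2, NE), -0.106 to 0.0426 (AREG, NE), -0.384 to 0.0134 (AREG, difference) and -0.0602 to 0.2005 (EREG, difference). The 4 members called with DEX kept their calls throughout: ERRFI1 at 1.65 to 1.73, HBEGF at -0.80 to -0.68, LRIG1 at -0.38 to -0.31 and ERBB3 at -0.63 to -0.46 on the log2 scale. Leaving out 1 library gave 983 to 1835 genes called with DEX, against 1530, the lowest without vehicle 2 and next 994 without DEX 2. With NE it gave 150 to 658 genes against 441, with 217 and 210 without vehicle 2 and 3 and 275, 150 and 160 without NE 1, 2 and 3, and 0 to 2 members against 1. A fit of all 12 libraries called 702 genes with NE. Why the NE counts move was not tested. The deviations of same-numbered libraries correlated at -0.0169, 0.0375 and -0.114 with DEX and at 0.148, 0.0331 and 0.0911 with NE. Pairing was accepted only with every correlation over 0.1, so the numbers were not used as pairs. As a hint from the data, 1 of 6 libraries correlated best with its own number in the DEX table and 5 of 6 in the NE table. With the replicate block the NE comparison called 1688 genes, 439 of the 441 among them, and 2 members, LRIG1 and EGFR (-0.25, adjusted p = 0.000303). Depth limits EREG and TGFA, whose counts reach 33 and 12 at most.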
